A study of Mus musculus with 59 samples.

Results

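Genes for potassium channels and their subunits were followed in RNA sequencing of the ventral tegmental area (VTA) of male mice given cocaine or saline. They were taken from the deposited expression table as the symbols that begin with Kcn and have a mean of at least 1 FPKM (a read measure divided by transcript length and by the size of the library) over all 59 libraries. The table lists 24346 symbols, of which 98 begin with Kcn, and 67 of these reached the limit. The members closest above the limit were Kcns1 at a mean of 1.12 FPKM and Kcng1 at 1.16 FPKM, and symbols just below it included Kcnk6 at 0.989 FPKM and Kcng2 at 0.852 FPKM.

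The VTA is the midbrain region whose dopamine neurons project to the striatum and cortex, and cocaine blocks the transporter that takes dopamine back up. Cocaine or saline was given in 4 paradigms: acute injections in the home cage (5 cocaine and 6 saline libraries), chronic injections in the home cage (6 and 6), conditioning (6 and 6) and intravenous self-administration (15 and 9). Strain, genotype, age, dose, number of doses and the time from the last dose to dissection are not given in the labels, and every sample is labelled as brain tissue of the VTA. Nothing in the labels ties each sample to its own animal. The p-values therefore rest on the spread among samples of a group, which may be technical.

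Potassium channels let potassium leave a neuron, which ends action potentials, sets their spacing and holds the resting potential. In dopamine neurons, SK channels open with calcium entry and give the pause after each spike, A-type Kv4 channels delay the next one, and G-protein-gated inward rectifiers (GIRK) carry the inhibition by D2 and GABA-B receptors. In glia, inward rectifiers take up potassium released by active neurons, and in myelinated axons Kv1 channels lie beside the nodes.

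Library sums of FPKM ran from 398577 to 457508. Read depth is unknown, since low values showed no step that would give back whole reads. Defining markers of dopamine neurons were high in the table as a whole, with the mean of log2(FPKM + 1) over 18 markers (the dopamine neuron level) between 5.21 and 5.79 in the 8 groups. The level ran from 4.49 to 6.42 in single libraries. The self-administration libraries stood apart from those of the other 3 paradigms in glial markers: the mean level of 14 oligodendrocyte and myelin markers was 7.15 and 7.21 in the self-administration groups and 7.67 to 7.96 in the other 6. Library 6 of the self-administration cocaine group held the highest value of Slc17a7, the vesicular glutamate transporter of cortical neurons, at 27.9 FPKM, with 9.4 FPKM in the next library and 0.0836 FPKM in the lowest. That library also had the highest value over all 59 libraries for 8 members and the lowest for 12. Library 0 of the same group and library 7 of self-administration saline also had the highest value for 8 members each. No other library had the lowest value for more than 7. The values of library 6 include 24.8 FPKM for Kcnip2, against 7.41 FPKM in the next library, and 11.6 FPKM for Kcnf1, against 8.33 FPKM.

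The members were grouped by symbol into channel classes, and FPKM, which divides by transcript length, was used to compare their levels. The highest means over all libraries were those of Kcnab2, a cytoplasmic beta subunit of Kv1 channels, at 121 FPKM, and Kcnj10, the Kir4.1 channel of glia, at 109.8 FPKM. Among pore-forming subunits of neurons, Kv3 genes led. These channels close fast and allow rapid firing, and means were 70.4 FPKM for Kcnc1, 41.1 FPKM for Kcnc4 and 26.8 FPKM for Kcnc2. Kv1 genes followed with Kcna1 at 43.5 FPKM, Kcna2 at 42.7 FPKM and Kcna6 at 31.9 FPKM, while the other 3 Kv1 members lay below 10 FPKM. Kcnq3, a subunit of the Kv7 channels that damp repeated firing, had 10.1 FPKM. Among the K2P leak channels, which hold the resting potential, Kcnk1 had 41.6 FPKM, Kcnk9 had 32.7 FPKM and Kcnk2 had 12.6 FPKM. The Kv4 genes were Kcnd3 at 33.7 FPKM, Kcnd2 at 17.9 FPKM and Kcnd1 at 3.15 FPKM, and Kcnip4, a calcium-binding subunit of Kv4 channels, had 47.9 FPKM, ahead of Kcnab3 at 35 FPKM in the class of auxiliary subunits.

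The GIRK genes were close to each other in level, with Kcnj9 at 17.9 FPKM, Kcnj3 at 12.3 FPKM and Kcnj6 at 10.7 FPKM, and Kcnj5 was far lower at 1.39 FPKM. Kcnj16, which forms glial channels with Kcnj10, had 19.6 FPKM, and Kcnj11, the pore of the ATP-sensitive channel, had 14 FPKM. The SK genes were Kcnn2 at 14.1 FPKM, Kcnn3 at 6.45 FPKM and Kcnn1 at 3.98 FPKM. Kcnma1, the BK channel opened by calcium and voltage together, had 13.2 FPKM, and Kcnt1, which is opened by sodium, had 14.1 FPKM. Kcnh2, an ERG channel, had 25.4 FPKM and the other 4 members of its class had between 1.37 and 3.99 FPKM. Among the silent Kv subunits, which form no channel alone and modify Kv2 channels, Kcng4 led with 18.4 FPKM, followed by Kcns3 at 9.64 FPKM and Kcnf1 at 5.11 FPKM. The class of other transcripts holds Kcnmb4os1 (2.61 FPKM) and Kcnmb4os2 (2.14 FPKM), which are transcribed from the strand opposite to Kcnmb4 and overlap it on chromosome 10 (GRCm38). Whether the counting used strand is not given in the sources used here, so reads of these RNAs and of Kcnmb4 may not have been told apart.

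**Figure D1:**
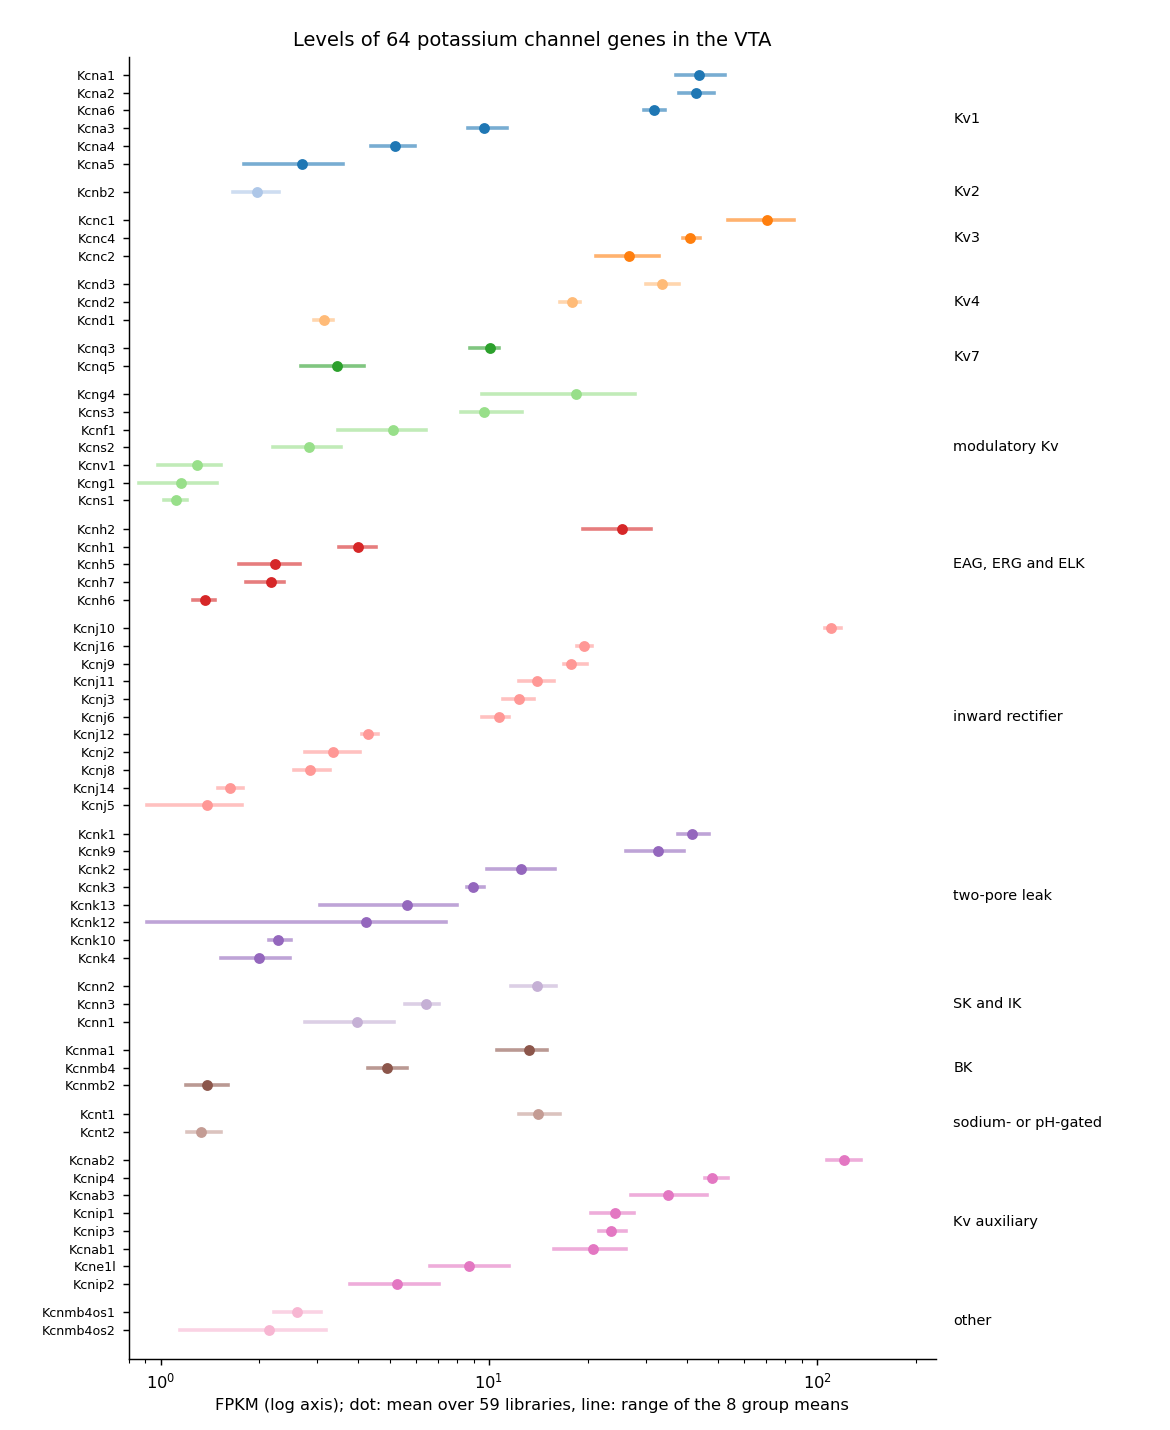
FPKM of 64 members by channel class on a log axis. Each dot is the mean over 59 libraries and each line spans the 8 group means. The lines of Kcnk12 and Kcnk13 are long beside that of Kcnj16.

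Members differed in how much they varied between libraries of a group. The median within-group SD of log2(FPKM + 1) was 0.193 over the members and 0.138 over all 13186 genes tested. Kcnj16 (0.089) was among the steadiest. Kcng4 (0.66), Kcnk12 (0.41), Kcnab1 (0.40), Kcna1 (0.39) and Kcnd3 (0.38) were among the most variable.

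Several members rose and fell with the dopamine neuron markers from library to library inside the groups. The slope of log2(FPKM + 1) on the dopamine neuron level, with group as a factor, was tested in the 35 acute, chronic and conditioning libraries by limma with Benjamini-Hochberg adjustment over all genes. It passed an adjusted p of 0.05 for 31 of 67 members, where 26.4% of all genes tested passed. Of these 10 were positive, against 13.1% of all genes, and 21 were negative, against 13.3%. In the 24 self-administration libraries 6 members passed (1.98% of all genes), 5 of them positive (1.52%) and 1 negative (0.463%). All 6 had also passed with the same sign in the other libraries, as had 95.4% of all genes called in self-administration. In bulk tissue, fewer cells of a type and less RNA per cell cannot be told apart.

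The 5 members with a positive slope in both sets were Kcnn3, the SK3 channel, Kcnd3, the Kv4.3 channel, Kcnj6, the GIRK2 channel, Kcns3, a silent subunit, and Kcnip4. Kcnn3 lies on chromosome 3 at 89520164 to 89675132 and Kcnd3 on the same chromosome at 105452330 to 105674002. Kcnj6 lies on chromosome 16 at 94748636 to 94997701, Kcns3 on chromosome 12 at 11090202 to 11151056 and Kcnip4 on chromosome 5 at 48389502 to 49524907 (GENCODE M21, GRCm38). Because these 5 moved together, the 250 bases before the RefSeq start (GRCm38.p6) of each are shown 5′ to 3′ on the strand of the gene, with any CCAAT box (CCAAT) or GC box (GGGCGG) found on either strand in capitals.
Kcnn3, chr3:89519914-89520163, plus strand: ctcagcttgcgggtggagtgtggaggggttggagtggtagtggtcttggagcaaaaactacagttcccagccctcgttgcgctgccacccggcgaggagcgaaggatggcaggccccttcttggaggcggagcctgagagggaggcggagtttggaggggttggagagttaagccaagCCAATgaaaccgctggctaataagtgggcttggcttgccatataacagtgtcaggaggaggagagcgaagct
Kcnd3, chr3:105451640-105451889, plus strand: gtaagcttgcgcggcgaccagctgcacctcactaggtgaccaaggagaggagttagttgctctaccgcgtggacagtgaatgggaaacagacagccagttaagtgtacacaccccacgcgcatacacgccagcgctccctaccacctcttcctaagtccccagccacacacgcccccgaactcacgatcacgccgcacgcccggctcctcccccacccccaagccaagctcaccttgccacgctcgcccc
Kcnj6, chr16:94997697-94997946, minus strand: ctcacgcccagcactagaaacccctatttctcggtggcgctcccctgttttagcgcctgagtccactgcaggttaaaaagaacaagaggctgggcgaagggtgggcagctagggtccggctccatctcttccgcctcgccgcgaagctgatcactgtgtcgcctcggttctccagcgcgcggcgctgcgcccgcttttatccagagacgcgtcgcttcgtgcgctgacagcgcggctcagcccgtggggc
Kcns3, chr12:11150843-11151092, minus strand: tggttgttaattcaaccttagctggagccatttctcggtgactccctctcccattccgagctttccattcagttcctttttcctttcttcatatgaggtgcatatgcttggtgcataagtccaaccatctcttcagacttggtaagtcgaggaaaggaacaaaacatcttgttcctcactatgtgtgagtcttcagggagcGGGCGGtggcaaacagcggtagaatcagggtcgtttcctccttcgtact
Kcnip4, chr5:49285660-49285909, minus strand: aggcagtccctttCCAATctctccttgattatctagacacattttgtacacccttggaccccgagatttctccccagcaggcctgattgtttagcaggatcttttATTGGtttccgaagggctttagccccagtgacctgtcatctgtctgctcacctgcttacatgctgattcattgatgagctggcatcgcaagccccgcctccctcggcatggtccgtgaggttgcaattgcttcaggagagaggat

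The Kcnip4 window lies inside the gene as GENCODE draws it. Most of the Kcns3 window lies inside its gene, which GENCODE ends at 11151056. The Kcnj6 window overlaps its gene, which ends at 94997701, by a few bases. No motif searched is in all 5 windows. The Kcnn3 window holds a CCAAT box, the Kcnip4 window holds 2, the Kcns3 window holds a GC box and the other windows hold none of the motifs. RefSeq windows were found for 49 members, among 27025 windows in all. The Nr4a motif AAGGTCA is in 3 of the 49 member windows (6.12%) and in 4.04% of all windows, a Pitx core (TAATCC) in 1 (2.04%) and in 6.37%, and a Foxa core (TGTTTAC) in 0 and in 3.06%. Kcnf1, Kcnh1 and Kcnj16 hold the Nr4a motif and Kcnj9 the Pitx core. A cyclic AMP response element (TGACGTCA) is in 0 member windows and 1.6% of all windows, and a TATA box (TATAAA) in 1 (2.04%) and 13%. A GC box is in 26 member windows (53.1%) and in 33% of all windows, a CCAAT box in 16 (32.7%) and in 34.5%. The median GC content was 60.4% in the member windows and 52% in all. Both strands were searched, and a match is a match of letters only.

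Kcnn3 stood at 8.29, 7.27, 4.10, 4.58 and 3.57 FPKM in the 5 acute cocaine libraries, numbered 0 to 4, whose dopamine neuron levels were, in the same order, 6.11, 6.11, 5.10, 5.12 and 4.63. The 2 libraries with the highest marker level had the 2 highest Kcnn3 values, and the library with the lowest level had the lowest. In chronic saline Kcnn3 ran from 3.76 through a median of 6.73 to 10.5 FPKM. Its slope was 0.69 ± 0.03 (SE) per unit of marker level in the 35 libraries (adjusted p = 1.36e-19) and 0.63 ± 0.11 in self-administration (adjusted p = 0.000504).

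Kcnd3 stood at 43.1, 39.3, 19.2, 24.1 and 25 FPKM in the same acute cocaine libraries, again high in the same 2. It ran from 20.8 through 35.7 to 55.7 FPKM in chronic saline. The slope of Kcnd3 was 0.72 ± 0.04 (adjusted p = 5.34e-15) and 0.73 ± 0.07 in self-administration (adjusted p = 5.34e-08). Kcnj6 stood at 12.9, 12.4, 6.03, 7.28 and 8.91 FPKM in those libraries, with slopes of 0.51 ± 0.05 and 0.58 ± 0.10. Kcns3 had slopes of 0.56 ± 0.06 and 0.67 ± 0.13, and Kcnip4 of 0.36 ± 0.04 and 0.42 ± 0.10. Leaving out any single library kept these 10 slopes past the limit, with 1 exception: for Kcnip4 in self-administration the largest adjusted p was 0.0521. Lrrc55, a BK channel gamma subunit and not a member, had 0.57 ± 0.03 and 0.53 in the same fits.

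**Figure D2:**
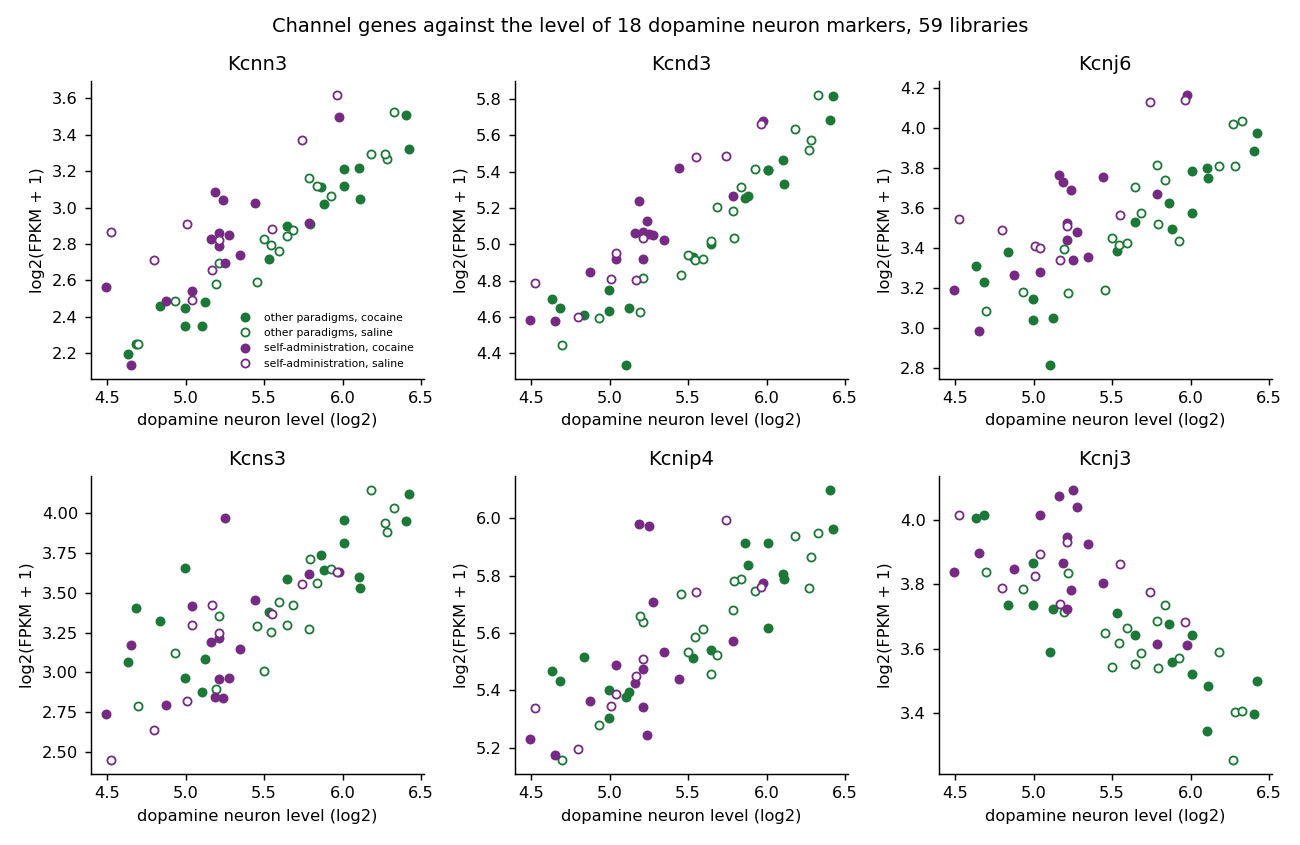
log2(FPKM + 1) of Kcnn3, Kcnd3, Kcnj6, Kcns3, Kcnip4 and Kcnj3 against the dopamine neuron level in 59 libraries. Filled points are cocaine and open points saline, with self-administration in purple and the other paradigms in green. The first 5 genes climb with the marker level in both sets. Kcnj3 falls in the green points, and its slope did not pass in self-administration.

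Members with a negative slope in the 35 libraries were led by Kcnab3 (-0.39 ± 0.07), Kcnip1 (-0.37 ± 0.07), Kcnf1 (-0.32 ± 0.11), Kcnh7 (-0.31 ± 0.05), Kcnj3 (-0.30 ± 0.03) and Kcns1 (-0.26 ± 0.04). The GIRK genes therefore did not share a direction in this fit: Kcnj6 was positive, Kcnj3 and Kcnj9 (-0.19 ± 0.05, adjusted p = 0.00307) were negative, and Kcnj5 did not pass (-0.04 ± 0.04). The Kv4 genes differed likewise, since Kcnd2 was negative at -0.16 ± 0.03 and, in self-administration, at -0.27 ± 0.07, a slope that lost the limit in 5 of 24 fits with a library left out. Of the others named here, Kcnf1 lost it in 5 of 35 such fits. The opposite-strand RNA Kcnmb4os1 was positive at 0.40 ± 0.09 in the 35 libraries and had -0.10 in self-administration (adjusted p = 0.779). Whether slopes differ between the 2 sets of libraries was not tested.

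Some members, Kcnab3 among them again, followed the oligodendrocyte level. In the 35 libraries 21 of 67 passed (14% of all genes), 15 of them positive (8.28%) and 6 negative (5.76%). All 14 oligodendrocyte markers were positive on this level and passed, which is largely built in, since the level is their mean. Of 18 dopamine neuron markers 17 were negative on it (median -1.22, 1 past the adjusted limit). With the dopamine neuron and astrocyte levels added, a fit chosen after seeing the data, 24 members passed (13.9% of all genes), 14 positive and 10 negative. The part of the dopamine neuron markers alone was not tested. On the oligodendrocyte level alone Kcng4 had the steepest slope at 2.94 ± 0.63 (adjusted p = 0.00231). Other steep slopes were those of Kcna1 at 1.98 ± 0.33, Kcnab1 at 1.93 ± 0.46, Kcnab3 at 1.28 ± 0.37 and Kcnc2 at 1.19 ± 0.34. Kcna2 (1.18 ± 0.23) and Kcnab2 (0.90 ± 0.20) were also positive, so 2 of the 6 Kv1 genes and all 3 beta subunit genes measured rose with the myelin markers. Kcnk13, a K2P gene known from glia (0.80 ± 0.17), and Kcnj10 (0.77 ± 0.15) passed as well. Negative slopes included those of Kcnip2 (-1.02 ± 0.31), Kcnk2 (-0.70 ± 0.17), Kcns2 (-0.57 ± 0.17), Kcnj5 (-0.49 ± 0.17) and Kcnip3 (-0.42 ± 0.13).

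In self-administration 12 members passed on the oligodendrocyte level (7.7% of all genes), 10 positive (4.62%) and 2 negative (3.08%). Of these 10 had also passed in the other libraries with the same sign, which is 83.3% of the 12 and 47.6% of the 21. Over all genes the same shares were 45.6% and 25%. Kcng4 (1.86 ± 0.52), Kcnab3 (0.97 ± 0.26), Kcnab2 (0.89 ± 0.24), Kcnk12 (0.84 ± 0.25) and Kcnk13 (0.79 ± 0.17) were among the positive ones, with Kcna5 (-0.72 ± 0.16) and Kcnj5 (-0.49 ± 0.12) on the negative side. Kcna1 had 0.72 ± 0.34 there and did not pass (adjusted p = 0.187). The count was 9 without library 6 of the cocaine group (5.92% of all genes). It was 6 without library 4 of the cocaine group and 17 without library 1 of the saline group, for which the share of all genes is not given here. With upper quartile scaling 6 positive and 4 negative slopes passed (7.3% of all genes). With the dopamine neuron and astrocyte levels added 8 passed (6.45%), 6 positive and 2 negative.

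**Figure D3:**
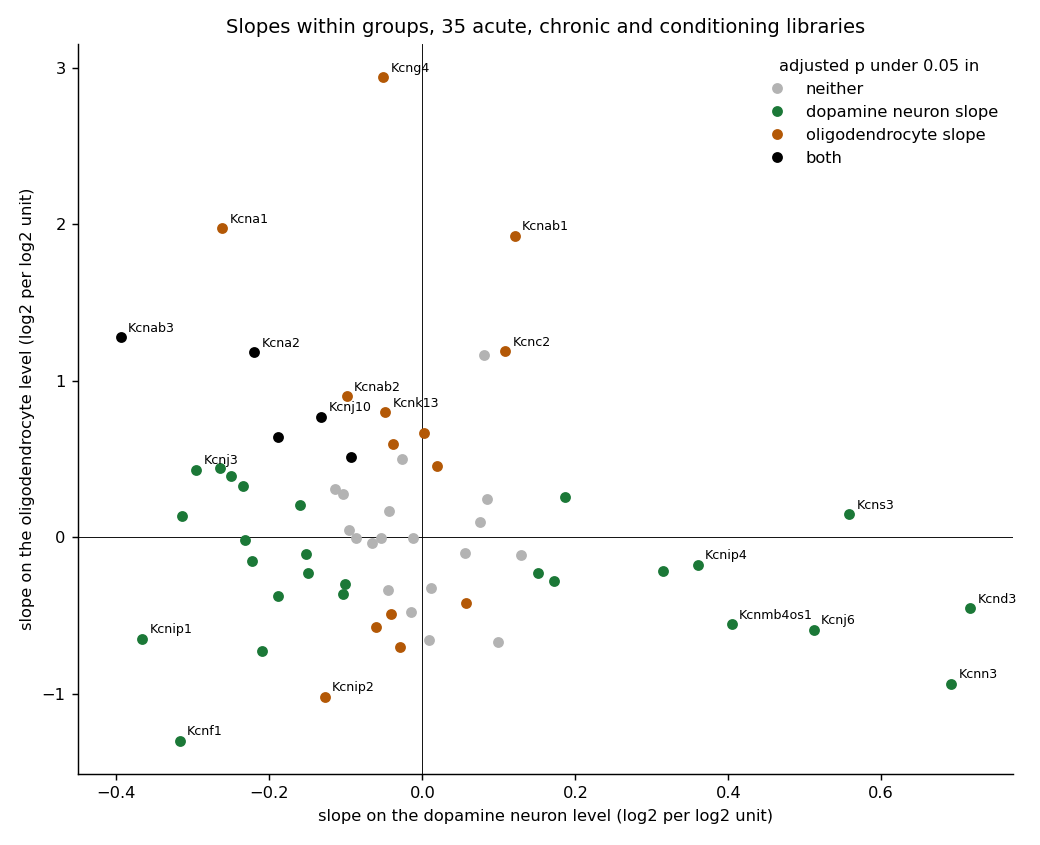
Slope of each of 64 members on the dopamine neuron level (horizontal) and on the oligodendrocyte level (vertical) in the 35 acute, chronic and conditioning libraries, both in log2 per log2 unit. Colour gives the slope that passed. Kcnn3 and Kcnd3 lie far right and Kcng4 far up.

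Slopes on the level of 12 astrocyte markers passed for 8 members in the 35 libraries (4.39% of all genes), 1 positive (1.87%) and 7 negative (2.53%). Of its own 12 markers 4 passed on it in the 35 libraries, with a median slope of 0.29 and a highest of 6.34, and 4 passed in self-administration (median 0.65). In the 35 libraries markers of other cells had positive slopes on it at an unadjusted p under 0.05. These were 15 of 18 dopamine neuron markers (1 past the adjusted limit) and 12 of 13 microglia markers (7 past it). With the dopamine neuron and oligodendrocyte levels added, a fit chosen after seeing the data, 0 members passed in the 35 libraries (0.326% of all genes). In self-administration that fit gave 2 (1.01%). The part of the dopamine neuron markers alone and that of the microglia markers were not tested. On the astrocyte level alone Kcna1 (-1.90 ± 0.45) and Kcna2 (-1.28 ± 0.28) were negative and Kcnip3 (0.56 ± 0.14) positive. The count of 8 became 0 without library 4 of the acute cocaine group and 22 without library 3 of the chronic cocaine group. The share of all genes in those fits is not given here. In self-administration only Kcnc1 passed (-0.89 ± 0.18, 1.15% of all genes, with 0.667% positive and 0.478% negative), and none passed without library 6 of the cocaine group (0.121%). Kcnj10, which astrocytes express strongly, had slopes of -0.56 ± 0.21 and 0.05 ± 0.28 on this level and passed in neither set, where 8 of the 12 astrocyte markers did not pass either in each set.

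The main question of the design is whether cocaine moved these genes in each paradigm. No member passed an adjusted p of 0.05 by limma in any of the 4 paradigms, and neither did any other gene (0%). At an unadjusted p under 0.05, 2 members passed in the acute, 2 in the chronic, 14 in the conditioning and 3 in the self-administration comparison. In the average over paradigms 0 members and 1 gene (0.00758%), Fgf20, passed the adjusted limit. The differences of members between cocaine and saline are therefore given as values.

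In the acute paradigm both members under the unadjusted limit were lower in cocaine (2 of 67, where 3.91% of all genes lay under it, 2.18% higher and 1.74% lower). Kcnma1 stood at 11.9, 10.5, 8.41, 10.8 and 11.2 FPKM in cocaine and from 11.3 through a median of 12.4 to 14.2 FPKM in saline. The groups overlapped at the top of the cocaine range. The difference was -0.24 ± 0.08 (SE, unadjusted p = 0.00971, adjusted p = 0.987). Kcnh5 had -0.19 ± 0.08, and the next 2 by p were Kcnb2 (-0.14 ± 0.07) and Kcnn2 (0.12 ± 0.06). Of the dopamine-linked members Kcnn3 had -0.34 ± 0.18, Kcnd3 -0.29 ± 0.20 and Kcnj6 -0.28 ± 0.17, while 17 of 18 dopamine neuron markers were lower too (median -0.41), none past an unadjusted p of 0.05. Their part in these values was not tested.

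In the chronic paradigm Kcna6 (-0.12 ± 0.04, unadjusted p = 0.008) was lower in cocaine and was 1 of 2 members under the unadjusted limit, against 7.36% of all genes (4.14% higher and 3.22% lower). Kcnk1 had 0.11 ± 0.05 and Kcnn2 -0.18 ± 0.10. Kcnn3 had 0.00 ± 0.22 and Kcnd3 0.06 ± 0.25. Their SE was several times that of Kcna6.

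Conditioning gave the longest list, 14 of 67 (20.9%, where 8.26% of all genes lay under the limit), with 7 higher and 7 lower in cocaine (3.91% and 4.35% of all genes). Kcnf1, a silent subunit, ran from 2.34 through 3.73 to 4.33 FPKM in cocaine and from 4.10 through 4.82 to 6.66 FPKM in saline, so the groups overlapped little. Its difference was -0.40 ± 0.12 (unadjusted p = 0.00426, adjusted p = 0.588). Kcne1l had -0.25 ± 0.08, and Kcnj11 ran from 15.1 to 16.6 FPKM in cocaine and 12.5 to 15.2 FPKM in saline, a difference of 0.15 ± 0.05.

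Among the 7 higher members of the conditioning comparison were 2 Kv1 channels and 2 of their beta subunits. Kcna1 ran from 41.7 through 47.8 to 73.9 FPKM in cocaine and from 23.9 through 38.7 to 49.2 FPKM in saline, with overlapping ranges and a difference of 0.50 ± 0.20. Kcna2 had 0.31 ± 0.12, Kcnab2 0.27 ± 0.09, Kcnab3 0.38 ± 0.16, Kcng4 0.79 ± 0.35 and Kcnj10 0.17 ± 0.07. The lower members were Kcnf1, Kcne1l, Kcnv1 (-0.24), Kcna3 (-0.24), Kcnj5 (-0.20), Kcna4 (-0.15) and Kcnk2 (-0.14). All 14 oligodendrocyte markers were higher in these cocaine libraries (median 0.11, 2 of them under an unadjusted p of 0.05), and the mean level was 7.96 ± 0.14 (SD, n = 6) against 7.84 ± 0.14 (SD, n = 6). All 13 microglia markers were lower (median -0.17, 6 under the unadjusted limit), as were 8 of 12 astrocyte markers (median -0.11, with 4 lower and 1 higher under that limit), 3 of 4 choroid plexus and ependyma markers (2 under it) and 17 of 18 dopamine neuron markers (median -0.10, 1 under it). Their part in the members' differences was not tested. With all 8 groups in 1 fit 7 members lay under the limit (4.3% of all genes). With the dopamine neuron and oligodendrocyte levels as covariates 6 members lay under the unadjusted limit (4.69% of all genes). These were Kcnj11, which stayed at 0.15 ± 0.05, Kcna2 (0.15 ± 0.06), Kcnab3 (0.25 ± 0.10), Kcne1l (-0.22 ± 0.08), Kcnf1 (-0.28 ± 0.10) and Kcnv1 (-0.27 ± 0.11). Kcna1 fell to 0.23 ± 0.12 and Kcnj10 to 0.07 ± 0.05.

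In self-administration 3 of 67 members lay under the unadjusted limit (3.47% of all genes, 1.7% higher and 1.77% lower). Kcnc2 ran from 18.4 through 26 to 42.6 FPKM in 15 cocaine libraries and from 19.2 through 21.2 to 22.7 FPKM in 9 saline libraries. The saline values lay inside the cocaine range, in its lower part, and the difference was 0.30 ± 0.11 (unadjusted p = 0.00914). Kcnab1 had 0.37 ± 0.15, Kcnk2 -0.16 ± 0.07 and Kcnn1 0.19 ± 0.09. Without library 6 of the cocaine group 9 members lay under it (6.07% of all genes): among them these 4, and Kcna2 (0.18 ± 0.09), Kcnab2 (0.25 ± 0.11), Kcng4 (0.67 ± 0.29) and Kcnj11 (0.19 ± 0.08). With library weights 21 members lay under it (24.7% of all genes). The adjusted count was 0 in each of these fits.

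**Figure D4:**
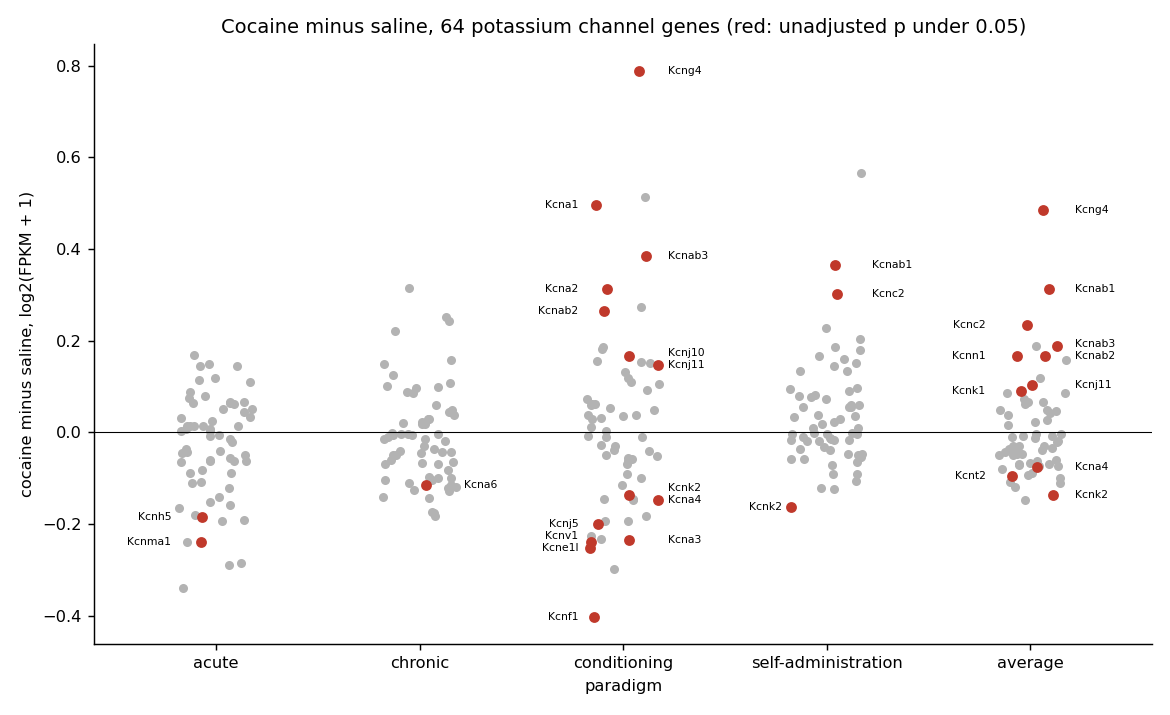
Cocaine minus saline in log2(FPKM + 1) for 64 members in each paradigm and in the average over paradigms. Each dot is a gene, red where the unadjusted p is under 0.05, with no dot past the adjusted limit. The conditioning and average columns hold 14 and 11 red dots.

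In the average over paradigms 13 of 67 (19.4%) lay under the unadjusted limit (12.8% of all genes), 9 higher (6.47%) and 4 lower (6.34%). Kcnk2, the TREK-1 leak channel, had -0.14 ± 0.04 (unadjusted p = 0.00107), with -0.04, -0.18, -0.14 and -0.16 in the acute, chronic, conditioning and self-administration comparisons. Kcnn1, the SK1 channel, had 0.17 ± 0.05, with 0.11, 0.16, 0.18 and 0.19. Kcnc2 had 0.23 ± 0.07, Kcnab1 0.31 ± 0.10 and Kcng4 0.48 ± 0.17. All 5 had the same sign in each paradigm. They were picked by p in the average of those same paradigms, which favours a shared sign. None passed (adjusted p = 0.247 for each). With both marker levels as covariates 7 members lay under the limit (7.2% of all genes), among them Kcnk2 at -0.10 ± 0.03 and Kcnn1 at 0.12 ± 0.04.

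Values by library group show how far apart the treatments lay for the members that lead the average. Kcnk2 stood at 11.5, 12.3, 12.3, 11.5 and 10.5 FPKM in the 5 acute cocaine libraries, and its lowest, median and highest values in acute saline were 10.5, 11.8 and 14.0 FPKM. The same 3 values for Kcnk2 were 8.15, 9.63 and 11.6 FPKM in chronic cocaine and 9.10, 10.7 and 13.9 FPKM in chronic saline, 9.51, 10.1 and 10.4 FPKM in conditioning cocaine and 9.81, 10.9 and 12.7 FPKM in conditioning saline. In self-administration Kcnk2 had 9.92, 13.8 and 17.2 FPKM in cocaine and 14.6, 15.1 and 17.8 FPKM in saline. The ranges of cocaine and saline overlapped in each paradigm, and the self-administration medians lay above the others in both.

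Kcnn1 stood at 4.46, 4.44, 4.16, 4.58 and 4.63 FPKM in the 5 acute cocaine libraries, and its lowest, median and highest values in acute saline were 3.28, 3.96 and 5.01 FPKM. The same 3 values for Kcnn1 were 4.00, 5.18 and 6.45 FPKM in chronic cocaine and 4.02, 4.49 and 4.88 FPKM in chronic saline, 4.42, 5.03 and 5.41 FPKM in conditioning cocaine and 3.54, 4.10 and 5.32 FPKM in conditioning saline. In self-administration Kcnn1 had 2.23, 3.54 and 4.46 FPKM in cocaine and 2.06, 2.72 and 3.61 FPKM in saline. Here too the ranges overlapped in each paradigm, and the cocaine median was the higher.

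Kcng4 stood at 15.6, 13.2, 14.5, 19.7 and 29.7 FPKM in the 5 acute cocaine libraries, and its lowest, median and highest values in acute saline were 6.43, 16.8 and 26.3 FPKM. The same 3 values for Kcng4 were 18.5, 26.5 and 37.9 FPKM in chronic cocaine and 10.2, 23.8 and 32.0 FPKM in chronic saline, 21.2, 29.5 and 32.2 FPKM in conditioning cocaine and 7.79, 15.3 and 31.2 FPKM in conditioning saline. In self-administration Kcng4 had 4.24, 14.3 and 33.0 FPKM in cocaine and 4.54, 7.81 and 18.1 FPKM in saline. The ranges of cocaine and saline overlapped in each paradigm, and the cocaine median was lower in the acute paradigm and higher in the other 3.

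Other members that are well known from dopamine neurons or glia showed small differences. In the average fit Kcnj6 had -0.09 ± 0.08, Kcnj9 -0.05 ± 0.05, Kcnj3 0.04 ± 0.04, Kcnd3 -0.03 ± 0.10, Kcnip4 -0.01 ± 0.06, Kcnn2 0.00 ± 0.04, Kcnk9 0.02 ± 0.07 and Kcnj16 0.03 ± 0.02. The effect of cocaine did not pass a test for differing between paradigms for any member (0% of all genes at the adjusted limit, and 0 members and 1.43% of genes at the unadjusted limit). The lowest p in that test was 0.0893, for Kcnj5.

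Between paradigms the members differed far more than between cocaine and saline. Across the 4 saline groups 32 of 67 passed the F test (48.9% of all genes). Self-administration saline against the mean of the other saline groups gave 36 (59.6% of all genes), 19 higher (31.8%) and 17 lower (27.8%). The same contrast in cocaine libraries, which share no library with the first, gave 40 (59.1%), 24 higher (32.2%) and 16 lower (26.9%). Both contrasts called 33 members, all with the same sign, which is 91.7% of the 36 and 82.5% of the 40. Over all genes the same shares were 85.8% and 86.5%. The members' share is close to that of all genes, and the paradigm cannot be told apart from any batch that went with it.

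Kcnk12 and Kcnk13, which code for the THIK leak channels, were the lowest in self-administration relative to the rest. Kcnk12 lies on chromosome 17 at 87745801 to 87797994, Kcnk13 on chromosome 12 at 99964499 to 100062682 and Kcnk2 on chromosome 1 at 189207930 to 189402273 (GRCm38). In the 5 acute cocaine libraries Kcnk12 stood at 6.07, 5.66, 5.01, 8.19 and 5.81 FPKM and Kcnk13 at 8.45, 6.28, 7.41, 7.95 and 8.97 FPKM. Kcnk12 ran from 0.449 through 0.838 to 1.26 FPKM in self-administration saline and from 3.15 to 10.3 FPKM over all other saline libraries. In cocaine it ran from 0.291 through 1.16 to 2.13 FPKM in self-administration and from 3.23 to 10.9 FPKM elsewhere. The ranges did not overlap in either. The differences were -1.84 ± 0.15 (adjusted p = 1.16e-10) and -1.73 ± 0.14 (adjusted p = 1.49e-11).

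Kcnk13 ran from 2.20 through 3.28 to 3.64 FPKM in self-administration saline and from 5.47 to 8.69 FPKM in the other saline libraries, and from 1.86 through 3.22 to 5.34 FPKM against 5.60 to 9.55 FPKM in cocaine. Again no value overlapped. The differences were -1.001 ± 0.067 and -0.91 ± 0.08. Kcnk2 went the other way: it ran from 14.6 to 17.8 FPKM in self-administration saline and from 9.10 to 14 FPKM in the others, a difference of 0.44 ± 0.06, and of 0.40 ± 0.06 in cocaine, where ranges overlapped. In saline 3 members did not overlap (8.53% of all genes) and in cocaine 2 (4%).

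Further members lower in self-administration in both contrasts were Kcng4 (-0.90 ± 0.27 and -0.76 ± 0.23), Kcnmb4os2 (-0.79 ± 0.10 and -0.76 ± 0.08), Kcne1l (-0.61 ± 0.08 and -0.48 ± 0.06), Kcnc1 (-0.56 ± 0.07 and -0.51 ± 0.07) and Kcnh2 (-0.54 ± 0.07 and -0.51 ± 0.09). Higher members were Kcna5 (0.51 ± 0.06 and 0.53 ± 0.09), Kcnf1 (0.42 ± 0.14 and 0.55 ± 0.12), Kcnip2 (0.39 ± 0.09 and 0.54 ± 0.15, the latter 0.41 without library 6), Kcns2 (0.38 ± 0.06 and 0.41 ± 0.05), Kcnj5 (0.37 ± 0.05 and 0.38 ± 0.06) and Kcnk9 (0.34 ± 0.09 and 0.40 ± 0.11). None of the 3 Kv4 members passed in either. Kcnn3, Kcnd3 and Kcnj6 had 0.02 ± 0.13, -0.03 ± 0.15 and 0.07 ± 0.12 in saline. Kcna5, Kcnf1 and Kcnj5, like Kcnip2, had their highest value over all libraries in library 6 of self-administration cocaine. The count in cocaine was 40 without that library as well.

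**Figure D5:**
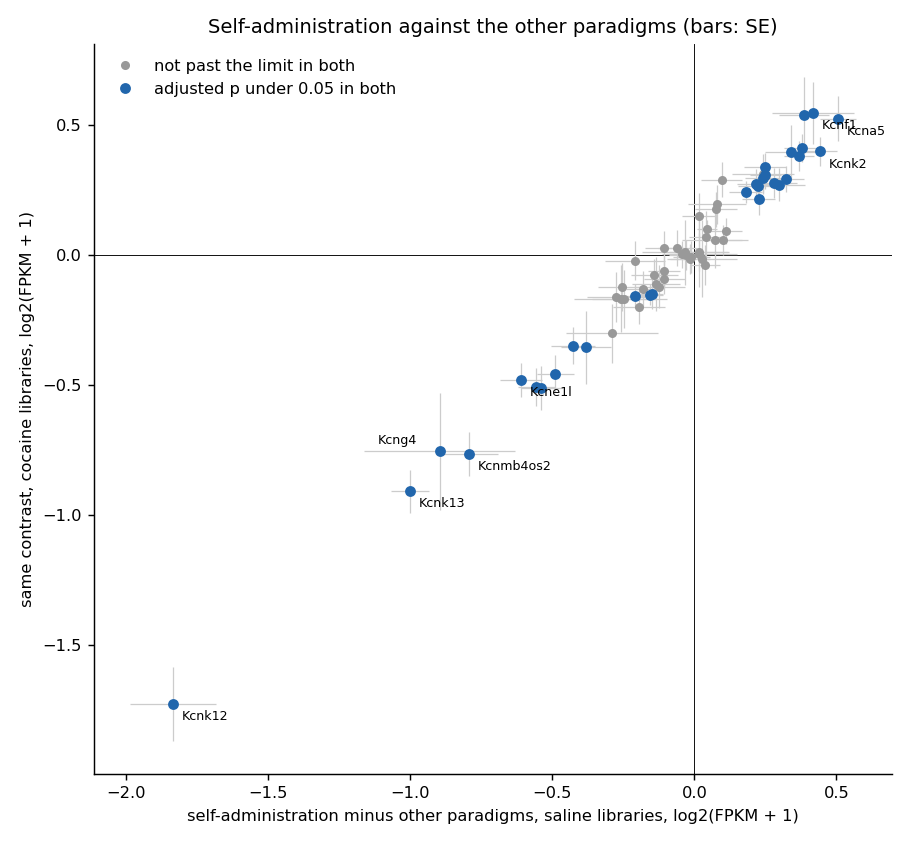
Self-administration minus the mean of the other paradigms for 64 members, in saline libraries (horizontal) and cocaine libraries (vertical), both in log2(FPKM + 1) with SE bars. Blue marks 30 members past the adjusted limit in both. Kcnk12 lies farthest down at -1.84 and -1.73.

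Marker lists moved with these contrasts. Of 14 oligodendrocyte markers 12 were lower in self-administration in saline and 12 in cocaine (medians -0.51 and -0.57), and of 13 microglia markers 10 and 10 were lower. Of 12 astrocyte markers 7 were higher and 1 lower in saline, and 6 higher and 2 lower in cocaine. Of 8 GABA neuron markers 3 were higher and 5 lower in saline, and 2 and 5 in cocaine. Of 7 oligodendrocyte precursor markers 2 were higher and 5 lower in saline, and 2 and 4 in cocaine. Of 18 dopamine neuron markers 5 passed in saline and 4 in cocaine, all of them lower (medians over the 18 of -0.21 and -0.15). Of 4 red blood cell markers 3 were higher and 1 lower in each (medians 2.15 and 2.07, lowest -2.70 and -3.72). The part of these lists in the members' differences was not tested. No defining oligodendrocyte marker was near 0, and the level in single self-administration libraries ran from 6.82 to 7.68. With the dopamine neuron and oligodendrocyte levels as covariates the counts were 5 for the F test over saline groups (13.5% of all genes), 10 for the saline contrast (1 higher and 9 lower, 21.6%) and 13 for the cocaine contrast (7 higher and 6 lower, 20.4%). Kcnk12 (-1.30 ± 0.28 and -1.06 ± 0.28), Kcnk13 (-0.65 ± 0.11 and -0.38 ± 0.13), Kcnmb4os2 (-0.65 ± 0.22 and -0.88 ± 0.15) and Kcng1 (-0.43 ± 0.13 and -0.51 ± 0.17) passed in both. Among the members that changed sign, Kcnf1 and Kcng4 did so in both fits and Kcnip2 and Kcna5 in cocaine. Kcns3 in cocaine passed with either sign, at -0.30 ± 0.11 without the covariates and 0.44 ± 0.13 with them (adjusted p = 0.016). Kcnh7 in saline (0.08 without and -0.49 with them) and Kcna1 in cocaine (-0.01 and 0.74) passed only with them. The oligodendrocyte level of the other libraries ran from 7.51 to 8.20, so the overlap on which that fit rests is small.

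Other contrasts between paradigms moved few members. Conditioning saline against home cage saline gave 0 (0.0303% of all genes). Chronic against acute saline gave 0 at the adjusted limit (0%) and 2 at the unadjusted limit (2.54%), Kcns2 at -0.21 ± 0.09 and Kcnip3 at -0.13 ± 0.06. Chronic against acute cocaine gave 0 (0%) and 7 (4.5%), with Kcns3 at 0.52 ± 0.19, Kcnq5 at -0.31 ± 0.11, Kcne1l at -0.27 ± 0.11 and Kcnn2 at -0.25 ± 0.09 among them. The adjusted p was 1 for the saline values and 0.999 for the cocaine values. With library weights the unadjusted counts were 20 in saline (18.3% of all genes) and 17 in cocaine (16.1%), and the adjusted counts stayed at 0.

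Partners of the channels were read from a list of 28 tested genes, and pumps and cotransporters from one of 10. In cocaine against saline 0 of either passed in any paradigm. In the self-administration contrasts 13 partners passed in saline (11 higher, 2 lower) and 14 in cocaine (12 higher, 2 lower), which is 46.4% and 50% of the list against 59.6% and 59.1% of all genes. Cntnap2, the adhesion protein that gathers Kv1 channels beside the nodes, had 0.42 ± 0.05 and 0.36 ± 0.04. Dpp6, a Kv4 partner, had 0.26 ± 0.05 and 0.29 ± 0.05, and Gabbr2, a GABA-B receptor subunit that acts on GIRK channels, had -0.26 ± 0.05 and -0.19 ± 0.05. Of the pumps and cotransporters 4 passed in saline (2 higher, 2 lower) and 6 in cocaine (3 higher, 3 lower), or 40% and 60% against the same background.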

How the data were processed

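RNA of the VTA was sequenced in 59 libraries after RNeasy extraction and TruSeq library preparation, per the labels' protocols. Expression was deposited by the authors as FPKM per gene symbol in a single table. Bowtie, Cuffnorm and mm10 are named, per the submitters' processing notes. For versions, annotation, scaling and strand the entry is: not given in the sources used here. FPKM shifts when a few abundant transcripts or fragment length change between libraries. Columns were mapped to groups by name. Their numbers count from 0 and do not match the replicate numbers of the labels, so libraries are named by group and column number. Whole reads could not be recovered: the commonest ratio of low values held 0.674% to 4.69% of genes. No count test was run.

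Values were taken as log2(FPKM + 1), and the 13186 genes that averaged 1 FPKM or more across libraries were tested with limma 3.58.1 in R 4.3.3 (two-sided, moderated variances with its trend and robust settings), adjusted by Benjamini and Hochberg over all of them, with a limit of 0.05. Differences are on the log2(FPKM + 1) scale, which understates changes of low genes. Cocaine and saline were compared within a paradigm using its libraries only, the average and the interaction over all 8 groups, and paradigms within saline or cocaine. A list level is the mean log2(FPKM + 1) of its markers. Slopes were fitted on it with group as a factor. The scripts were checked on simulated data.

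Members, channel classes, marker lists and contrasts were chosen with earlier results of these data known. Named are the highest members of each class, up to 6 members per direction past the limit (or the 4 with the smallest p), a panel of 19 genes and members near the level limit. Counts cover all 67 members, of which 3 are not reported here by name or drawn. Others were named after their values were seen: members under the unadjusted limit, those outside library overlap, those past the limit with marker levels as covariates, and partner genes. Alternatives were a pseudocount of 0.1, upper quartile and quantile scaling, other filters, no trend and robust options, library weights, 2 marker levels as covariates, a fit of all 8 groups and each library left out. Coordinates come from GENCODE M21 on GRCm38, the assembly mm10 names, matched by symbol for all 67 members. Promoter windows come from RefSeq (GRCm38.p6).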

Additional observations from a re-analysis of the deposited data

Results flagged for a closer look

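Within groups of 5 to 10 libraries, 23 of 343 checks of a named member found its highest or lowest library separated from the rest by more than Dixon's 95% limit allows. Chance gives about 1 in 20. Library 0 of the conditioning cocaine group held 4 of them: Kcnip4 at 67.5 FPKM, Kcnq3 at 11.8 FPKM and Kcnv1 at 1.23 FPKM were the highest of that group, and Kcnj9 at 13 FPKM the lowest. Library 4 of the acute cocaine group was lowest for Kcna5 (1.26 FPKM) and highest for Kcnj10 (137 FPKM). Library 0 of the acute saline group was lowest for Kcnf1 (2.48 FPKM) and Kcnip1 (15.7 FPKM), and library 0 of the chronic cocaine group was highest for Kcnc1 (106 FPKM) and Kcnk9 (34.7 FPKM). Library 2 of the chronic saline group was highest for Kcnj5 (1.39 FPKM) and Kcnj8 (3.5 FPKM).

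Kcnj5 also had a single high library in acute saline (1.51 FPKM) and conditioning cocaine (1.39 FPKM). In conditioning saline the separate libraries were low for Kcnn2 (9.91 FPKM) and Kcnq3 (8.67 FPKM) and high for Kcns1 (1.53 FPKM) and Kcns2 (3.44 FPKM). In self-administration saline they were high for Kcna1 (62.8 FPKM), Kcnj10 (131 FPKM), Kcnj8 (6.32 FPKM) and Kcnmb4os2 (2.11 FPKM) and low for Kcns1 (0.525 FPKM). The self-administration cocaine group, with 15 libraries, was not checked this way.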

How the results depend on the processing

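No paired analysis was possible because the columns carry no replicate number of the labels. The cocaine comparisons gave 0 members at the adjusted limit in every alternative run and with any library left out. With the dopamine neuron and oligodendrocyte levels as covariates the count fell from 32 to 5 for the saline groups, from 36 to 10 for self-administration against the other paradigms in saline and from 40 to 13 in cocaine. In that fit the saline difference became -0.21 for Kcnf1 and 0.52 for Kcng4, and the cocaine difference became -0.28 for Kcnf1, -0.45 for Kcnip2, -0.052 for Kcna5 and 0.55 for Kcng4. The cause was not tested. With the dopamine neuron, oligodendrocyte and astrocyte levels in 1 fit, an alternative chosen after seeing the data, the astrocyte slopes passed for 0 members in the 35 libraries and for 2 in self-administration, where upper quartile scaling gave 5. The other adjusted counts stayed within 1.5 times, but not every split by sign or unadjusted count. Upper quartile scaling turned the oligodendrocyte slopes in self-administration from 10 positive and 2 negative to 6 and 4. Library weights raised the unadjusted counts from 3 to 21 for cocaine in self-administration, from 2 to 20 for chronic against acute saline and from 7 to 17 for chronic against acute cocaine. For cocaine effects differing between paradigms they gave 8 in place of 0, where the share of all genes rose from 1.43% to 10.1%. For conditioning against home cage saline they gave 6 in place of 0, where that share rose from 4.79% to 14.9%. Leaving out 1 library gave 23 to 33 members for the saline groups, lowest without library 5 of self-administration saline, and 36 to 39 and 38 to 41 for self-administration against the rest. It gave 27 to 32 and 4 to 8 for the dopamine neuron slopes, 17 to 23 and 6 to 17 for the oligodendrocyte slopes, and 0 to 22 and 0 to 5 for the astrocyte slopes. For named members, besides the 6 sign changes above, alternatives took 35 values past the limit below it and brought 3 past it, and 44 values that passed in neither fit changed sign. Depth is unknown, so no counting error is given, and members near 1 FPKM are compressed by the pseudocount.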
